A study of Homo sapiens with 12 samples.

Results

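Histone genes were followed across the development of lapatinib resistance in BT474 cells. Genes were taken by name, as those of the HIST1 to HIST4 clusters together with H2AFX, H2AFZ, H2AFY, H2AFV, H3F3A, H3F3B, H1F0 and H1FX, and were kept when the value reached 1 in at least 3 of 12 libraries. This kept 31 of 81 listed genes, out of 26485 genes in the table, and these 31 are called members here. BT474 is a human breast cancer line with amplified HER2, labelled wild type in every library, and lapatinib blocks the kinase activity of HER2 and EGFR. Control cells were taken at day 0, drug-tolerant persisters (DTP) at day 9, expanded persisters that again divide under drug (DTEP) at month 6 and long-term resistant cells (LR) at month 9 of lapatinib at 1 µM given every 3 days, with 3 libraries a group. The treatment label of the Control libraries also reads lapatinib at 1 µM, but the sample titles give Control and day 0, which was followed here. The libraries of a group came from parallel plates that the study calls technical replicates, so SDs and p-values describe these libraries only and not independent derivations of resistant cells.

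Histones package DNA into nucleosomes, whose core holds pairs of H2A, H2B, H3 and H4, while the linker histone H1 sits on the DNA between them. Most copies are encoded by replication-dependent genes, intronless genes that lie in clusters, are transcribed mainly in S phase and give mRNAs that end in a conserved stem-loop instead of a poly(A) tail. The stem-loop is bound by SLBP, and the U7 snRNP cuts the precursor just after it. Replacement histones such as H3.3, H2A.Z and H1.0 are encoded outside the clusters, are made through the cell cycle and carry poly(A) tails. Some replication-dependent genes can also give polyadenylated mRNA, which is known from cells that leave the cycle.

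The study names its library kit as TruSeq Stranded Total mRNA. That name does not settle whether polyadenylated RNA alone was captured. Reads of tailed and untailed histone transcripts cannot be told apart in a table of gene values, so the levels below are those of histone RNA that entered such libraries. Depth was 16383363 to 25030482 assigned reads a library. A single read was worth 0.0412 to 0.0576 normalised read counts, the deposited unit, in which reads were divided by a library size scaled by trimmed means. A gene without a read could reach a level of 3 reads, or 0.124 to 0.173, by counting error alone. The luminal markers EPCAM, KRT8, KRT18, KRT19, GATA3 and ERBB2 were all detected in the 12 libraries. Their sum averaged 9682 over Control and 13431 over DTP libraries, then 4868 over DTEP and 4492 over LR libraries. By adjusted p 4 of 6 were lower and 1 higher in LR against Control, against 32.6% and 30.2% of all genes. Of 5 markers of other cell types, PTPRC (leukocytes), PDGFRB (stroma) and PECAM1 (endothelium) were at most 0.217 in any library. The collagen gene COL1A1 was at 53.4, 50.9 and 61.7 in Control, 59.2, 55.8 and 48.1 in DTP, 79.8, 121 and 98.6 in DTEP and 104, 130.4 and 98.4 in LR, and the endothelial gene VWF at 7.77, 7.94 and 8.57 in Control and at most 0.383 in DTEP and LR. The sum of the 5 lay between 49.9 and 70.2 in the Control and DTP libraries and between 80.3 and 131 in the DTEP and LR libraries, and the part of these shifts in the histone values was not tested. In bulk RNA, a change in the number of cells in a given state and a change in RNA per cell cannot be told apart.

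The 31 members were 24 replication-dependent genes (2 of H1, 6 of H2A, 10 of H2B, 4 of H3 and 2 of H4) and 7 replacement genes. Of the replication-dependent members, 21 of 56 listed lay in the HIST1 cluster on chromosome 6, 1 of 13 in HIST2 and 2 of 3 in HIST3 on chromosome 1, and the single HIST4 gene was not kept. Among the 50 listed genes that were not kept, 40 had at least 1 read and 10 were listed at 0 in every library. These 10 included H3F3A, which encodes the same H3.3 protein as H3F3B, and the copied pairs HIST2H2AA3 and HIST2H2AA4, HIST2H4A and HIST2H4B, and HIST2H3A and HIST2H3C. The near-identical copies of such a pair share reads, which a counter may split or drop. The 0 of these pairs and of H3F3A is given as listed and not as absence of expression. The reason for the 0 of H3F3A was not tested. The highest value of a gene not kept was 2.66, for HIST2H2BC. Just inside the rule, HIST1H2AM and HIST1H4E reached 1 in exactly 3 libraries, and the lowest of those values was 1.02 in HIST1H2AM and 2.57 in HIST1H4E. Just outside it, 5 genes reached 1 in exactly 2 libraries and lay at 0.842 or lower in all others. In 10 members, all replication-dependent, the LR libraries were needed to pass the rule. Those 10 needed values of 1 or more in LR, so counts are also given for the other 14 replication-dependent members.

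The stem-loop is the sequence by which replication-dependent mRNAs are processed, and it is shown for the members the results turn on. The search took a left stem GGCNCT, a loop NTTC and a right stem AGNGCC, directly joined, on the transcript strand within 150 bases after the stop codon, with at most 1 mismatch. It was found after the stop codon of 24 of 24 replication-dependent members, of 45 of 46 other listed replication-dependent genes with a protein-coding model and of 1 of 7 replacement members, H2AFX. Of 19919 protein-coding genes, 79 (0.397%) held it. Each is given with 5 bases on either side, read from hg38 on the transcript strand, 5′ to 3′, with both stems in capitals.
HIST2H2BE, chr1:149886188-149886203, minus strand: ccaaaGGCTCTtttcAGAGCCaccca
HIST1H2BD, chr6:26158587-26158602, plus strand: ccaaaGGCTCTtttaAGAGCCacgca
HIST1H2AC, chr6:26124669-26124684, plus strand: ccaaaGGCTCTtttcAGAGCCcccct
HIST1H1C, chr6:26055744-26055759, minus strand: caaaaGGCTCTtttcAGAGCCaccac
HIST1H3H, chr6:27810516-27810531, plus strand: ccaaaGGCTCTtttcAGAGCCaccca
HIST1H4H, chr6:26285131-26285146, minus strand: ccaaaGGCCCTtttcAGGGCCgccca
H2AFX, chr11:119094898-119094913, minus strand: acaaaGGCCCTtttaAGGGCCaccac
The coordinates are those of the 16 bases of stem and loop. HIST1H2BD and H2AFX each differ from the search pattern by 1 mismatch. In the canonical GENCODE transcript, the RNA runs on for 1729 bases past the stem-loop in HIST2H2BE and for 1024 bases in H2AFX, but for 4 to 18 bases in the other 23 replication-dependent members. The RefSeq spans of 6 replication-dependent members were long, at 2224 to 13229 bases, against 409 to 776 bases in the other 18. HIST1H2BD (13229 bases), HIST1H2BC (10757 bases), HIST1H2BK (8566 bases) and HIST2H2BE (2224 bases) were among the 6.

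Promoters were taken from RefSeq on GRCh38.p14, as 250 bases before to 50 bases after the start, and 30 of 31 members matched. A CCAAT box, read on either strand, was present in 22 of 24 replication-dependent members (91.7%) and in 35.7% of 27305 promoters. The octamer ATTTGCAT, which OCT1 (POU2F1) binds in H2B promoters, was present in 12 of 24 replication-dependent members, 7 of them among the 10 H2B genes, and in 1.80% of promoters. TATAAA was present in 14 of 24 (58.3%) and in 3264 of 27305 promoters. The HIST2H2BE promoter is shown because this gene had the largest log2(value + 1) change of the members in LR against Control. It lies at chr1:149886633-149886932, minus strand, with CCAAT, octamer and TATAAA matches of either strand in capitals.
HIST2H2BE promoter: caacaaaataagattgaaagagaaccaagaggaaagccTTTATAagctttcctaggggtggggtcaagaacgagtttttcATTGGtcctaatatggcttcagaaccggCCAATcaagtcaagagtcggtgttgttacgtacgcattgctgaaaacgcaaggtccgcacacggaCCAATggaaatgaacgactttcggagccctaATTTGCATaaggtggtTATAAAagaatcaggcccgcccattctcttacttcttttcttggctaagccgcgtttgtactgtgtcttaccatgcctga
A match of these letters is a description of the sequence and no sign that a factor was bound in these cells.

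The summed level of the 24 replication-dependent members rose at each step. It was 86.9, 82.5 and 85.9 in the Control libraries, 159, 167 and 147 in DTP, 248, 224 and 177 in DTEP and 668, 966 and 362 in LR, and no 2 groups overlapped. The group means stood in ratios of 1.85 for DTP over Control, 1.37 for DTEP over DTP and 3.08 for LR over DTEP. The classes differed. In DTP over Control the H1, H2A and H2B sums stood at 1.35, 2.32 and 1.94, and the H3 and H4 sums at 0.923 and 1.03. In DTEP over DTP the ratios were 5.74, 1.19, 1.08, 3.02 and 1.54 for H1, H2A, H2B, H3 and H4. The mean H1 sum rose from 8.39 to 48.2 at that step, while the H2A and H2B sums of DTEP and DTP libraries overlapped. Most of the sum came from 3 H2B genes. HIST2H2BE, HIST1H2BK and HIST1H2BD together gave between 74.2 and 76.2% of it in each Control library and between 81.0 and 83.2% in each DTP library, but between 58.4 and 59.9% in DTEP and between 63.3 and 64.5% in LR. The 49 listed replication-dependent genes that were not kept followed another course at day 9. Their sum was 2.58, 2.66 and 2.52 in Control, fell to 1.20, 0.839 and 1.15 in DTP, and was 5.598, 8.897 and 6.62 in DTEP and 13.9, 26.6 and 8.77 in LR. The 7 replacement members summed to 1504, 1482 and 1427 in Control, 1375, 1379 and 1344 in DTP, 3958, 4226 and 2672 in DTEP and 2864, 2595 and 2424 in LR. Their sum was thus highest in DTEP, where replicates 1 and 2 stood above all LR libraries and replicate 3 lay within the LR range.

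**Figure D1:**
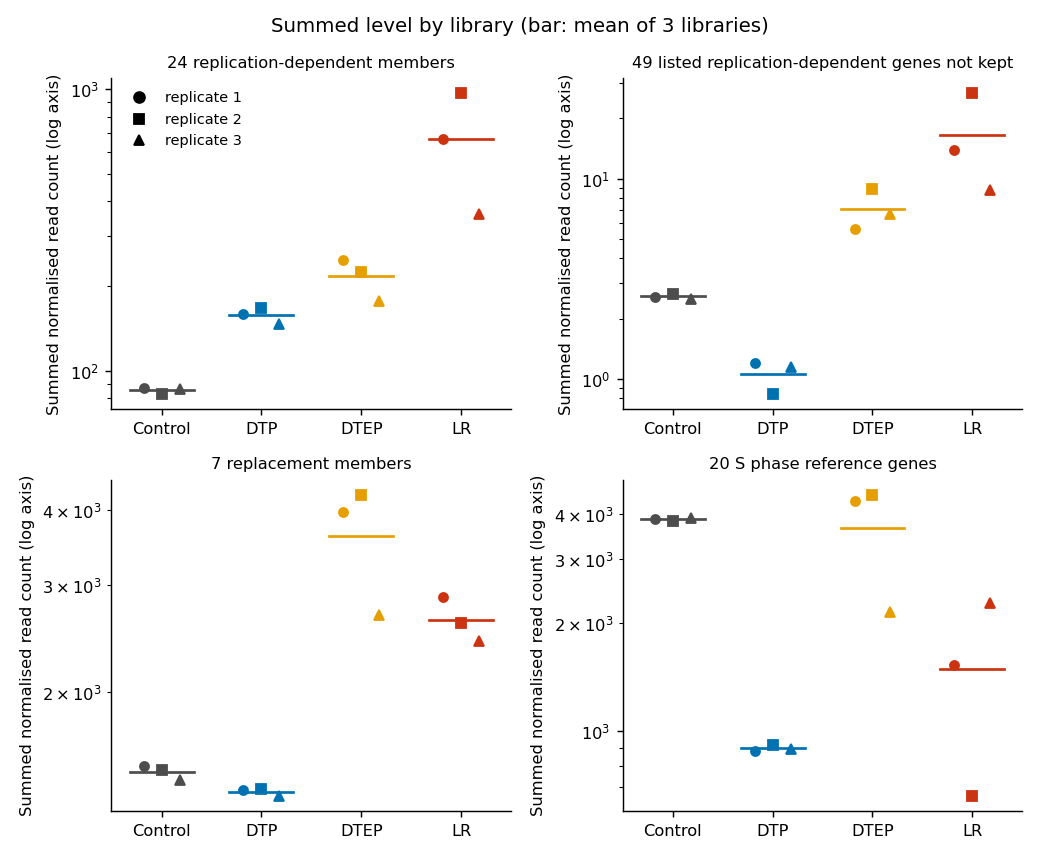
Summed normalised read count (log axis) of 4 gene sets by group, each point a library with its replicate number as symbol and each bar the mean of 3 libraries. The 24 replication-dependent members rose from 82.5 to 86.9 in Control to 362 to 966 in LR, the genes not kept and the 20 S phase reference genes dropped in DTP, and the replacement members peaked in DTEP.

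DTP and Control cells were compared to ask which histone genes moved over the first 9 days of lapatinib. A small set of replication-dependent genes rose, namely HIST2H2BE, HIST1H2BD, HIST1H2AC and HIST3H2A, while the replacement histones H2AFZ, H2AFV and H2AFX fell and H1F0 rose. Members were called where limma gave an adjusted p under 0.05 together with a log2 change beyond 2 in either direction. By this rule 0 members were higher and 0 lower, beside 1.01% and 3.90% of all 13794 genes tested. An unadjusted p below 0.05 with that log2 change was also met by 0 members, while edgeR and DESeq2 on the recovered reads each called 1 higher and 3 lower, beside 3.53% and 5.68% of all genes in edgeR and 3.49% and 5.74% in DESeq2. By adjusted p alone 5 of 31 members (16.1%) were higher, against 25.2% of all genes, and 4 (12.9%) were lower, against 28.8%, so both shares lay below the background. The median log2 change was -0.01 over the members and -0.01 over all genes.

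HIST2H2BE, an H2B gene of the HIST2 cluster (chr1:149884459-149886682, minus strand), was at 15.4, 14.7 and 14.6 in Control and 49.6, 47.2 and 43.99 in DTP libraries. All DTP libraries lay above all Control libraries, a log2 change of 1.59 ± 0.34 (SE), adjusted p = 0.00198. HIST1H2BD (chr6:26158121-26171349, plus strand) showed the same step, from 10.8, 11.6 and 12.3 to 33.8, 40.03 and 31.04 (log2 change 1.51 ± 0.34 (SE), adjusted p = 0.00294). HIST1H2AC, the H2A member with the highest mean value, went from 3.403, 2.34 and 3.26 to 8.61, 8.05 and 8.29 (log2 change 1.23 ± 0.33 (SE), adjusted p = 0.00782). HIST3H2A rose from 0.506, 0.217 and 0.326 to 1.62, 1.33 and 1.38 (log2 change 0.86 ± 0.25 (SE), adjusted p = 0.0116). These 4 were the replication-dependent members that passed as higher, and all 4 belong to the H2A and H2B classes. By limma none of the 4 H3 and 2 H4 members passed in either direction, while edgeR and DESeq2 both called HIST1H3G lower (adjusted p 0.0288 in edgeR and 0.0141 in DESeq2) and passed no other H3 or H4 member. HIST1H3H, an H3 gene, was at 0.368, 0.978 and 0.512 in Control and 0.313, 0.642 and 0.403 in DTP, and HIST1H4H, an H4 gene, at 3.08, 2.83 and 2.42 and 3.03, 2.27 and 2.94, with groups that overlapped for both. HIST1H2BH passed as lower, from 0.828, 0.707 and 0.652 to 0.157, 0 and 0.346 (log2 change -0.58 ± 0.22 (SE), adjusted p = 0.0428), and it lost that call when any 1 of the Control libraries, DTP replicate 1 or 2, or LR replicate 1 was left out. Most listed genes, kept or not, had a lower mean at day 9. Of the 64 listed replication-dependent genes with any read, 40 had a lower and 18 a higher mean in DTP than in Control cells, and 14 were lower and 6 higher without overlap of the groups, which was the case in 39.6% and 37.7% of all genes tested.

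Among replacement members at day 9, H1F0 (H1.0, the linker histone of slowly cycling and differentiated cells, chr22:37805229-37807432) rose from 146, 141 and 141 to 332, 313 and 304 (log2 change 1.14 ± 0.15 (SE), adjusted p = 8.78e-05). H2AFZ (H2A.Z.1, found at promoters, chr4:99948088-99950275) fell from 293, 282 and 257 to 127, 129.7 and 116 (log2 change -1.15 ± 0.25 (SE), adjusted p = 0.00234). H2AFV, its near twin H2A.Z.2, fell from 329, 328 and 297 to 158, 176 and 208 (log2 change -0.82 ± 0.13 (SE), adjusted p = 0.000247). H2AFX, which is phosphorylated at DNA breaks, fell from 44.6, 42.6 and 50.1 to 25.3, 19.9 and 13.8 (log2 change -1.21 ± 0.35 (SE), adjusted p = 0.0115). For these 4 genes the DTP and Control libraries did not overlap. H3F3B (H3.3) at 215, 208 and 197 and 274, 299 and 294, H1FX (H1.10) at 52.8, 43.5 and 48.8 and 88.9, 69.99 and 52.1, and H2AFY (macroH2A1) at 425, 436 and 436 and 368, 371 and 357 did not pass, with adjusted p of 0.0512, 0.0795 and 0.246. Of these 3, H3F3B and H2AFY had no overlap between the groups, and H3F3B and H1FX passed as higher in edgeR and in DESeq2.

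**Figure D2:**
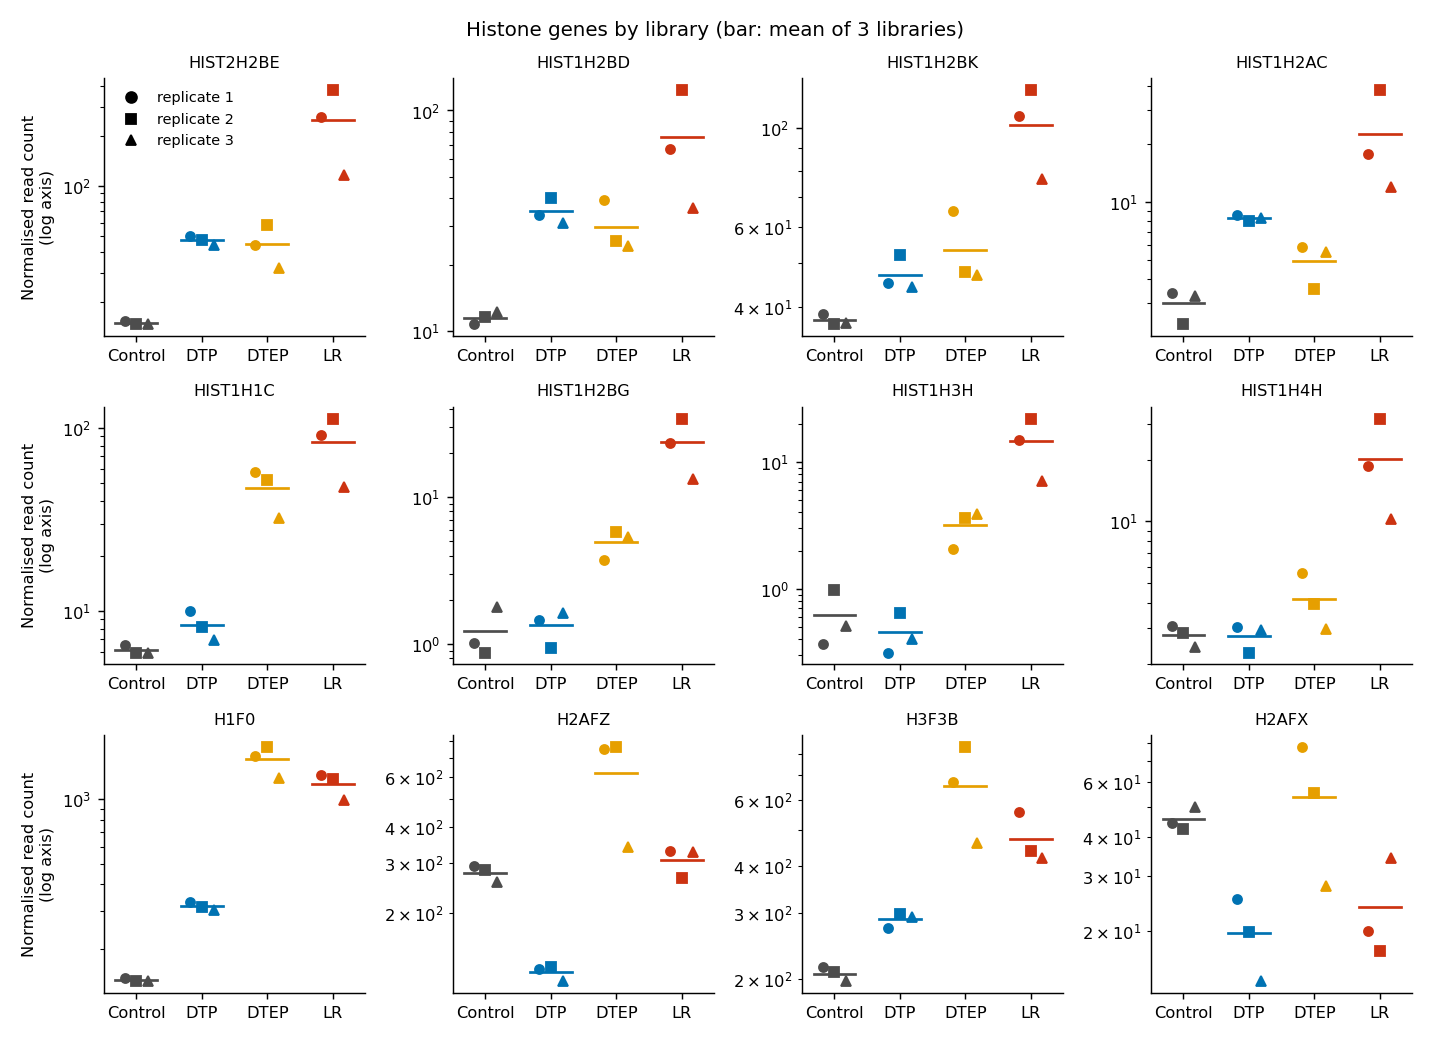
Normalised read count (log axis) of 12 histone genes by group, each point a library with its replicate number as symbol and each bar the mean of 3 libraries. HIST2H2BE and HIST1H2AC stepped up in DTP and again in LR, HIST1H2BD stepped up in DTP, HIST1H1C and H1F0 stepped up in DTEP, and H2AFZ and H2AFX were lowest or near lowest in DTP.

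DTEP and DTP cells were compared to ask what changed as persisters grew out again. The linker histone genes HIST1H1C and H1F0 and the H2A.Z gene H2AFZ had the largest rises of the members on the log2(value + 1) scale, and by limma no member passed as lower. By ratio of means, members that were near 0 in DTP rose more, such as HIST1H2BH (21.4, from 9 reads in the DTP libraries), against 5.63 for HIST1H1C. At the log2 threshold 3 of 31 members (9.68%) were called higher, HIST1H1C, H1F0 and H2AFZ, against 8.13% of all genes, and 0 were called lower, against 7.02%. By adjusted p alone 19 (61.3%) were higher, against 35.7%, and 0 lower, against 32.6%, and at an unadjusted p below 0.05 also 0 were lower. With edgeR and with DESeq2, 14 members were called higher and 0 lower, beside 11.2% and 12.6% of all genes in edgeR and 10.5% and 13.2% in DESeq2. The median log2 change was 0.76 over the members and 0.08 over all genes. Of the 14 replication-dependent members that did not depend on LR to be kept, 7 were higher by adjusted p.

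HIST1H1C (H1.2, chr6:26055740-26056470, minus strand) was at 6.49, 5.93 and 5.92 in Control, 10.02, 8.19 and 6.91 in DTP and 57.3, 51.9 and 32.3 in DTEP libraries, a log2 change of 2.33 ± 0.30 (SE), adjusted p = 2.27e-05 from DTP to DTEP. The other linker member, HIST1H1D (H1.3), was nearly silent before, with 5 reads in Control and 1 read in DTP libraries in all, and reached 0.861, 1.73 and 0.505 in DTEP (log2 change 0.95 ± 0.23 (SE), adjusted p = 0.00291). Its reads per depth in DTEP were 62.2 times those in DTP (exact 95% counting interval 10.8 to 2492), an imprecise ratio since DTP held 1 read. H1F0 went from 332, 313 and 304 to 1598, 1753 and 1258 (log2 change 2.26 ± 0.15 (SE), adjusted p = 1.47e-07). Per kilobase of transcript its mean level in DTEP was 697, close to the 714 of H2AFZ and above every other member. H2AFZ went from 127, 129.7 and 116 to 752, 762 and 342 (log2 change 2.22 ± 0.25 (SE), adjusted p = 8.88e-06), with replicate 3 far below replicates 1 and 2. H3F3B rose to 670.3, 833 and 462 (log2 change 1.14 ± 0.19 (SE), adjusted p = 0.000215), H2AFX to 77.8, 55.3 and 27.95 (log2 change 1.33 ± 0.35 (SE), adjusted p = 0.00489) and H1FX to 114, 129.7 and 76.3 (log2 change 0.59 ± 0.23 (SE), adjusted p = 0.0341). The H1FX groups overlapped. H2AFV at 213, 216 and 190.1 and H2AFY at 534, 476 and 316 did not pass, with adjusted p of 0.184 and 0.225.

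The 4 genes that rose in DTP did not all go on rising. HIST2H2BE was at 43.9, 58.2 and 31.8 in DTEP (log2 change -0.11 ± 0.34 (SE), adjusted p = 0.782), HIST1H2BD at 39.3, 25.6 and 24.4 (log2 change -0.25 ± 0.34 (SE), adjusted p = 0.536) and HIST1H2AC at 5.84, 3.54 and 5.501 (log2 change -0.67 ± 0.33 (SE), adjusted p = 0.0905). By limma and edgeR none of these 3 passed. Every DTEP library lay below every DTP library for HIST1H2AC, which passed as lower in DESeq2 (adjusted p = 0.0432). HIST3H2A rose further to 3.44, 3.46 and 3.03 (log2 change 0.82 ± 0.25 (SE), adjusted p = 0.011). Other genes moved instead. HIST1H2BH rose to 4.02, 4.61 and 2.13 (log2 change 1.94 ± 0.22 (SE), adjusted p = 8.67e-06), HIST1H3H to 2.06, 3.62 and 3.87 (log2 change 1.503 ± 0.33 (SE), adjusted p = 0.00141) and HIST1H2BG to 3.73, 5.81 and 5.33 (log2 change 1.34 ± 0.30 (SE), adjusted p = 0.00161). In all 3 the groups did not overlap. Of the 64 listed replication-dependent genes with reads, 54 had a higher and 7 a lower mean in DTEP than in DTP cells.

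LR and DTEP cells were compared to ask what set the month 9 cells apart from the month 6 cells. Replication-dependent genes of all 4 core classes rose, no replacement gene rose and H2AFZ fell. HIST2H2BE alone was called higher at the log2 threshold, 1 of 31 members (3.23%) against 0.225% of all genes, and 0 were called lower, against 0.457%, with 0 lower at an unadjusted p below 0.05 and that log2 change. By adjusted p alone 18 (58.1%) were higher, against 3.04%, and 1 (3.23%) was lower, H2AFZ, against 4.31%. All 18 were replication-dependent, 11 of them among the 14 that did not depend on LR to be kept. Both edgeR and DESeq2 called 9 higher and 0 lower, beside 0.515% and 3.70% of all genes in edgeR and 0.545% and 4.53% in DESeq2. The median log2 change was 0.90 over the members and -0.07 over all genes. These calls leaned on the pooled spread, since a fit of the 6 LR and DTEP libraries alone passed 0 members, and on single libraries, since leaving out 1 library at a time gave 7 to 20 members higher by adjusted p, with 7 without DTEP replicate 2 or LR replicate 1, 8 without LR replicate 2, 10 without DTEP replicate 1 and 20 without LR replicate 3.

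HIST2H2BE reached 258, 377 and 116 in LR libraries, all above the DTEP libraries (log2 change 2.35 ± 0.34 (SE), adjusted p = 0.0059), and it was not called without LR replicate 2. The next core genes rose by like amounts. HIST1H2BG reached 23.3, 34.4 and 13.4 (log2 change 1.97 ± 0.30 (SE), adjusted p = 0.00624), HIST1H4H 18.8, 31.9 and 10.3 (log2 change 1.94 ± 0.32 (SE), adjusted p = 0.00848) and HIST1H2AC 17.7, 38.02 and 12.02 (log2 change 1.85 ± 0.33 (SE), adjusted p = 0.0111). HIST1H3H reached 14.9, 21.97 and 7.03 (log2 change 1.80 ± 0.33 (SE), adjusted p = 0.0121). In these 4 the LR and DTEP libraries did not overlap. HIST1H2BK, which had the highest level per kilobase of the replication-dependent members in Control, moved less, from 65.2, 47.9 and 47.1 to 106, 121 and 76.9 (log2 change 0.90 ± 0.18 (SE), adjusted p = 0.0178). The linker members did not pass by limma, with HIST1H1C at 91.9, 113 and 47.9 (log2 change 0.78 ± 0.30 (SE), adjusted p = 0.095) and HIST1H1D at 2.49, 2.99 and 1.21 (log2 change 0.67 ± 0.23 (SE), adjusted p = 0.0782). HIST1H2BD, at 67.04, 124 and 36.2, overlapped with DTEP and did not pass by limma either (adjusted p = 0.0556), but passed as higher in edgeR (adjusted p = 0.0292) and DESeq2 (adjusted p = 0.00256). HIST1H1C passed in DESeq2 (adjusted p = 0.03) and not in edgeR.

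All 7 replacement members had a negative log2 change from DTEP to LR, and 1 passed by limma, as it did in edgeR and DESeq2. H2AFZ fell to 329, 265 and 328 (log2 change -0.92 ± 0.25 (SE), adjusted p = 0.0479), with all LR libraries below all DTEP libraries, and lost its call when any library other than DTEP replicate 3 was left out. H2AFX was at 20.1, 17.3 and 34.2 (log2 change -1.08 ± 0.35 (SE), adjusted p = 0.0683), H1F0 at 1293, 1243 and 988 (log2 change -0.38 ± 0.15 (SE), adjusted p = 0.104), H3F3B at 559, 439 and 421 (log2 change -0.44 ± 0.19 (SE), adjusted p = 0.129) and H1FX at 81.2, 61.04 and 61.97 (log2 change -0.62 ± 0.23 (SE), adjusted p = 0.0874). H2AFX passed as lower in DESeq2 (adjusted p = 0.017) and not in edgeR (adjusted p = 0.057). Without DTEP replicate 3, which was the lowest DTEP library for 7 of 7 replacement members, 6 of 7 passed as lower. Lower calls rose outside these members too, since the same fit passed 38 of the histone supply genes described below as lower, against 7 with all libraries. Of the replication-dependent members 0 passed as lower in it. The share of all genes in that fit is not given here.

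**Figure D3:**
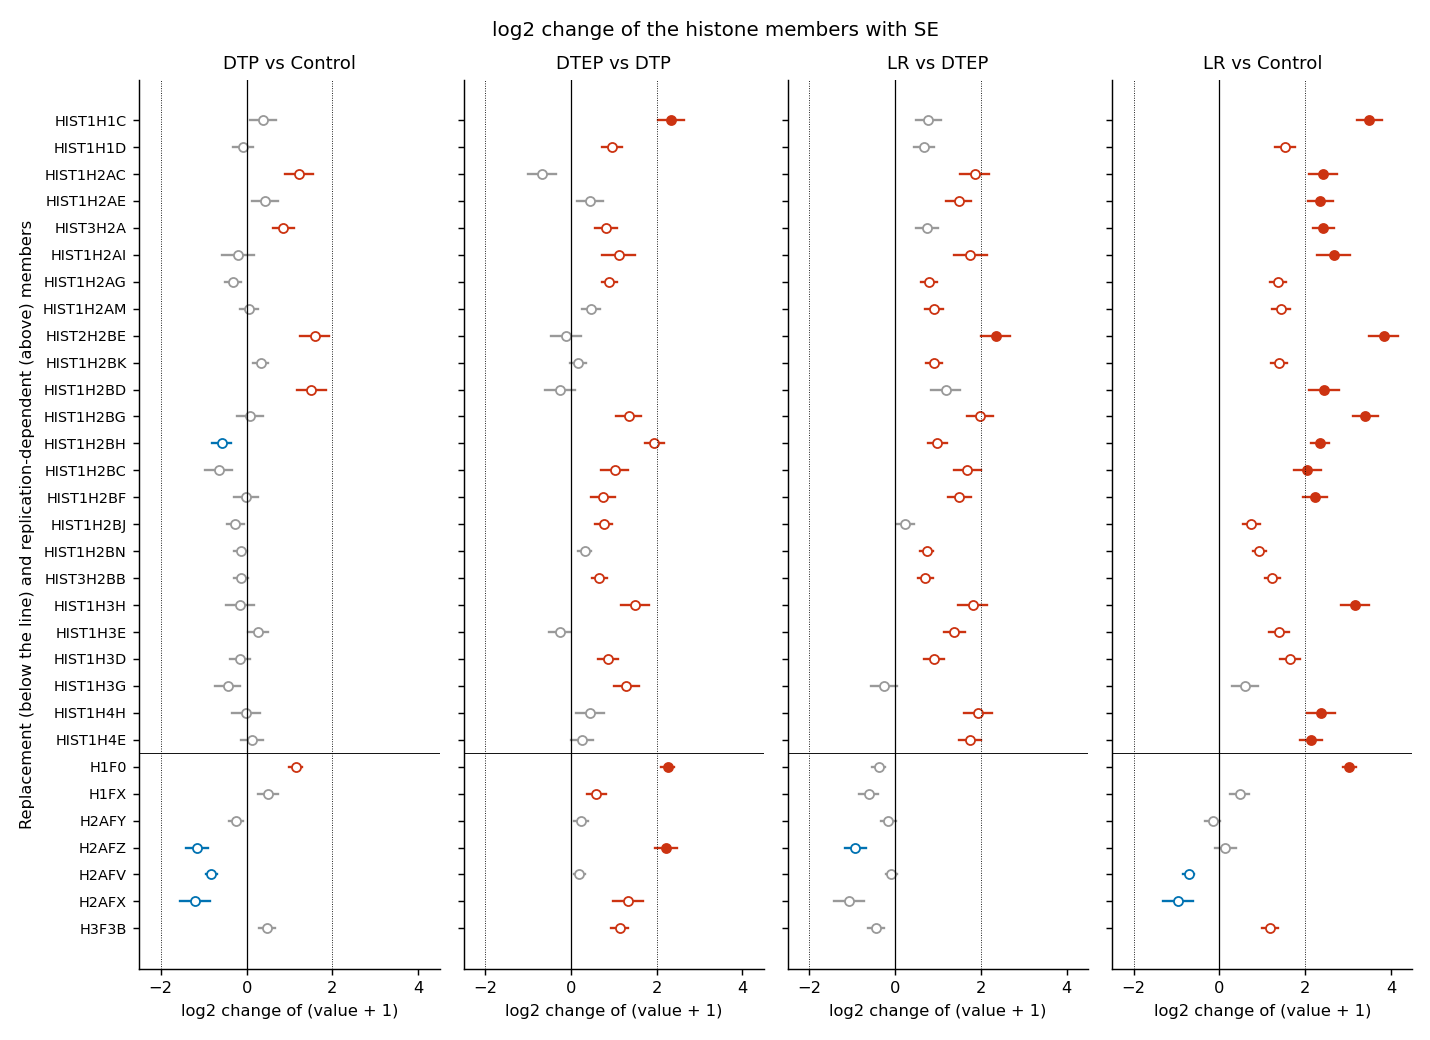
log2 change of (value + 1) with its SE for the 31 members in 4 comparisons, from limma over 12 libraries. Red and blue mark an adjusted p below 0.05, higher and lower, grey marks the rest, and filled points also lie beyond the dotted lines at a log2 change of 2. In LR against DTEP, 18 of 24 replication-dependent members were red and no replacement member was, and against Control 14 replication-dependent members and H1F0 were filled.

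Against Control cells, the DTEP state showed 2 of 31 members called higher (6.45%), HIST1H1C and H1F0, against 4.43% of all genes, and 0 called lower, against 6.20%, with 0 lower at an unadjusted p below 0.05 and that log2 change. By adjusted p alone 21 (67.7%) were higher, against 29.5%, and 1 (3.23%) lower, H2AFV, against 28.7%. The count of 21 fell to 13 without Control replicate 1 or without Control replicate 2. In edgeR 11 members were called higher, beside 7.31% of all genes, and in DESeq2 9, beside 6.78%, and 0 were called lower in both, beside 9.85% and 10.3%. HIST1H1C had a log2 change of 2.72 ± 0.30 (SE), adjusted p = 8.74e-06, and H1F0 of 3.41 ± 0.15 (SE), adjusted p = 6.1e-09.

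By month 9 the change from Control was broad. In LR against Control, 15 of 31 members (48.4%) were called higher, against 5.03% of all genes, and 0 were called lower, against 7.80%, with 0 lower at an unadjusted p below 0.05 and that log2 change. By adjusted p alone 25 (80.6%) were higher, against 30.2%, and 2 (6.45%) were lower, H2AFV and H2AFX, against 32.6%. Of the 14 replication-dependent members that did not depend on LR to be kept, 11 were called and 14 were higher by adjusted p. The count of 15 was 10 without LR replicate 2. In all of those 14 the LR libraries lay above the Control libraries, a pattern seen in 37.6% of all genes tested. It also held for the 10 members whose place depended on high LR values, and among the 64 listed genes with reads, kept or not, 47 did and 0 had all LR libraries below. The median log2 change was 1.64 over the members and -0.03 over all genes. In edgeR 22 members were called higher, beside 8.18% of all genes, and in DESeq2 21, beside 7.53%, and 0 were called lower in both, beside 11.9% and 12.5%.

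On the log2(value + 1) scale HIST2H2BE had the largest change of all members, 3.83 ± 0.34 (SE), adjusted p = 1.22e-06, a ratio of means of 16.8. By ratio of means other members, lower in Control, rose more, among them HIST1H3H (23.6) and HIST1H2BG (19.4). HIST1H1C followed at 3.50 ± 0.30 (SE), adjusted p = 8.5e-07, then HIST1H2BG at 3.40 ± 0.30 (SE), adjusted p = 1.1e-06 and HIST1H3H at 3.16 ± 0.33 (SE), adjusted p = 4.71e-06. HIST1H2BD changed by 2.44 ± 0.34 (SE), adjusted p = 6.01e-05, HIST1H2AC by 2.41 ± 0.33 (SE), adjusted p = 4.74e-05 and HIST1H4H by 2.37 ± 0.32 (SE), adjusted p = 4.74e-05. The H2A, H2B, H3 and H4 sums of the replication-dependent members went from 5.19 ± 0.891, 67.98 ± 1.31, 2.70 ± 0.324 and 3.05 ± 0.24 (SD, n = 3) in Control to 52.5 ± 29.1, 477 ± 216, 24.3 ± 10.6 and 25.3 ± 13.7 in LR, so all 4 class sums were higher. These sums include members that needed high LR values to be kept, such as HIST1H2AI and HIST1H4E, so the rule shaped them in part. HIST1H2AC, HIST1H2BG, HIST1H3H and HIST1H4H, given above, did not depend on LR to be kept. HIST1H1D, at 2.49, 2.99 and 1.21 in LR, had 27.3 times the reads per depth of Control (exact 95% counting interval 11.4 to 85.3), with 5 reads in Control. Of the replacement members, H1F0 stayed high (3.02 ± 0.15 (SE), adjusted p = 1.38e-08) and H3F3B was higher (1.18 ± 0.19 (SE), adjusted p = 0.000196). H2AFZ was back near its Control level (0.14 ± 0.25 (SE), adjusted p = 0.641), while H2AFV at 208, 182 and 193 (-0.71 ± 0.13 (SE), adjusted p = 0.000411) and H2AFX (-0.97 ± 0.35 (SE), adjusted p = 0.0288) lay below it. H2AFX lost its call when any 1 Control library or LR replicate 1 or 2 was left out. H2AFY (-0.16 ± 0.17 (SE), adjusted p = 0.429) and H1FX (0.48 ± 0.23 (SE), adjusted p = 0.085) did not pass.

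The members of a class did not move alike. Among the 4 H3 members, HIST1H3E was at 1.38, 1.25 and 1.21 in Control, 1.305, 1.83 and 2.19 in DTP and 1.29, 0.618 and 2.25 in DTEP, and rose in the last step to 4.901, 6.25 and 3.97 (LR against DTEP 1.38 ± 0.24 (SE), adjusted p = 0.00987). HIST1H3G took another path, from 0.506, 0.272 and 0.466 in Control to 0, 0 and 0.115 in DTP, 2.97, 1.57 and 0.617 in DTEP and 1.01, 2.16 and 0.533 in LR. It rose in DTEP (1.29 ± 0.30 (SE), adjusted p = 0.00214 against DTP) and was the 1 replication-dependent member that did not pass in LR against Control (0.60 ± 0.30 (SE), adjusted p = 0.0999). Of the H2B members, HIST1H2BJ rose in DTEP against DTP (0.76 ± 0.20 (SE), adjusted p = 0.00464) and did not pass in LR against DTEP (0.24 ± 0.20 (SE), adjusted p = 0.401), with 1.196, 1.73 and 0.449 in DTEP and 1.06, 1.72 and 1.55 in LR. HIST1H2BC was at 0.157, 0.346 and 0.461 in DTP, 1.196, 1.52 and 2.41 in DTEP and 9.38, 12.1 and 3.59 in LR, and rose at both later steps (1.02 ± 0.32 (SE), adjusted p = 0.0126 and 1.68 ± 0.32 (SE), adjusted p = 0.0142). Of the H2A members, HIST1H2AI was at 0.718, 0.989 and 2.301 in DTEP and 7.39, 12.95 and 2.71 in LR (1.76 ± 0.38 (SE), adjusted p = 0.0234), while HIST3H2A, which had risen at both earlier steps, reached 5.79, 10.4 and 3.83 in LR and did not pass by limma (0.74 ± 0.25 (SE), adjusted p = 0.0727). HIST1H4E, the other H4 member, was at 0.718, 0.618 and 0.617 in DTEP and 4.27, 8.14 and 2.57 in LR (1.75 ± 0.26 (SE), adjusted p = 0.0061). HIST1H4E reached 1 in the LR libraries alone, and HIST1H2AI also needed LR libraries to be kept, so the high LR values of both were part of the rule. Several of these genes differ from sister copies by few bases, and reads that fit more than one copy may have been split or dropped in counting.

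**Figure D4:**
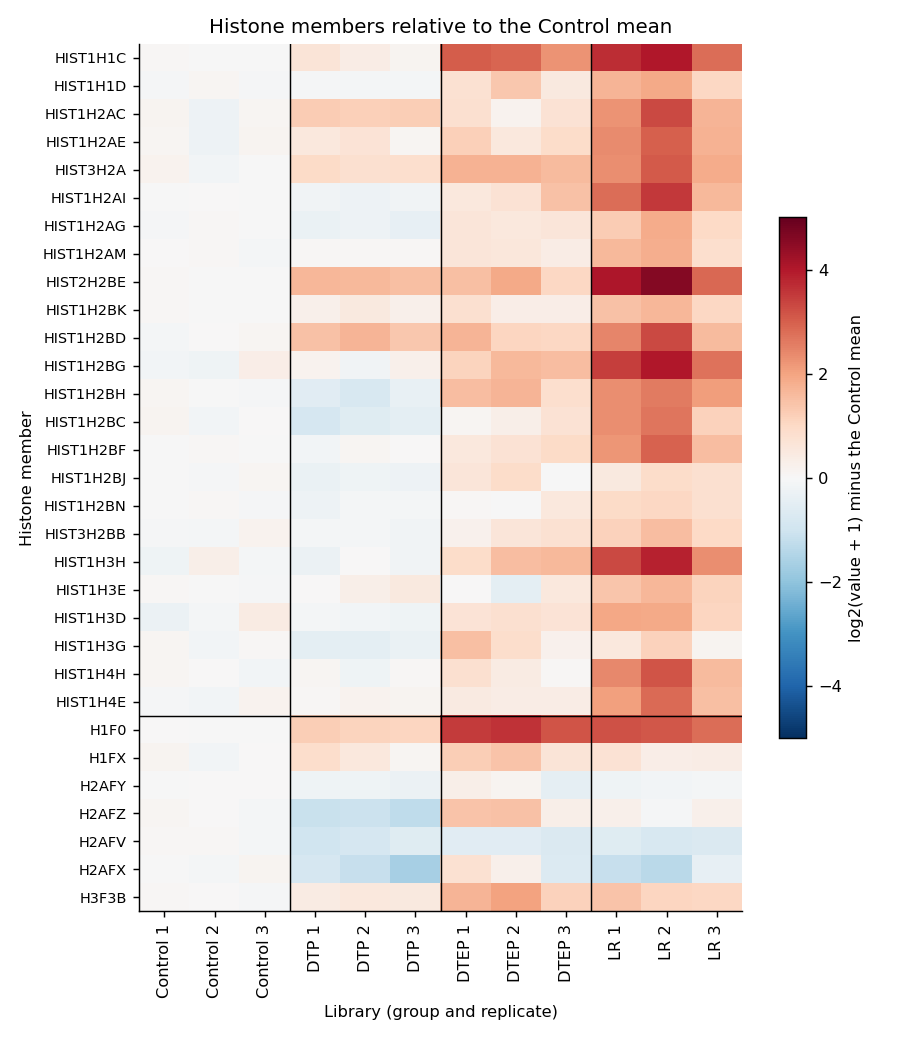
log2(value + 1) of the 31 members in each of the 12 libraries, minus the mean of the Control libraries, with red above and blue below Control. Replication-dependent members (above the line) are darkest in LR replicate 2 and paler in LR replicate 3, and H1F0 stands out among the replacement members from DTEP on.

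The LR libraries spread over a wide range of the summed level, and in one order. LR replicate 2 was the highest LR library for 23 of 24 replication-dependent members and LR replicate 3 the lowest for 23 of 24. In Control and DTP no library was highest for more than 10 of the 24. The summed replication-dependent level in LR over Control was 7.82 with all libraries, 6.05 without LR replicate 2 and 9.604 without LR replicate 3. A list of 20 S phase genes (MCM2 to MCM7, PCNA, RRM2, TYMS and others) ran the other way, with LR replicate 3 highest and LR replicate 2 lowest for 20 of 20. The S phase sum was 3863, 3823 and 3902 in Control, 885, 914 and 895 in DTP, 4345, 4509.6 and 2138 in DTEP and 1522, 663 and 2269.8 in LR.

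The S phase genes fell in DTP, where the replication-dependent sum rose, and both rose in DTEP. In DTP, 20 of 20 S phase genes were lower by adjusted p (median log2 change -2.73), against 28.8% of all genes. The summed replication-dependent level was 1.85 times that of Control. In DTEP against DTP, 18 of 20 S phase genes were higher and 1 lower, against 35.7% and 32.6% of all genes. The S phase sum rose 4.08 times, against 1.37 times for the replication-dependent sum. The ratio was 1.08 for the H2B part of that sum, with groups that overlapped, and 5.74 for its H1 part. In LR against Control, 15 of 20 S phase genes were lower and 0 higher (median -1.65), against 32.6% and 30.2% of all genes. The lower count was 10 without LR replicate 2 and 20 without LR replicate 3. In the same comparison, 14 of the 14 replication-dependent members that did not depend on LR to be kept were higher. The difference between the lists was not tested. RNAs that lack a poly(A) tail by nature (7SK, 7SL, RMRP, small nuclear and small nucleolar RNAs) were summed as a measure of untailed RNA in the libraries. The sum of all 27 listed was 18.5, 17.5 and 16.1 in Control, 26.2, 26.2 and 24.2 in DTP, 22.97, 59.4 and 11.5 in DTEP and 11.2, 13.2 and 15.4 in LR. Of the 27, only 8 passed the filter and were tested gene by gene. The sum was higher in DTP than in Control libraries, as the replication-dependent sum was, and lower in LR than in Control. By adjusted p 1 of the 8 was higher and 1 lower in DTP, against 25.2% and 28.8% of all genes. In LR against Control 0 were higher and 2 (25%) lower, against 30.2% and 32.6%, with 0 higher at an unadjusted p below 0.05. The part of tail status or of untailed RNA in the histone values was not tested.

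Genes that lie next to the HIST1 members were compared with them. Between 100000 bases before the first and 100000 bases after the last listed HIST1 gene (chr6:25626063-27993891), 22 other genes were tested. Their median log2 change in LR against Control was 0.46, and that of the 21 HIST1 members 2.13. Of the 22, 9 were higher (40.9%) and 5 lower (22.7%) by adjusted p in LR against Control, against 30.2% and 32.6% of all genes, and 3 were called higher and 2 lower. In LR against DTEP the medians were 0.14 and 1.18, and 0 of the 22 passed in limma, where 3.04% of all genes were higher and 4.31% lower. Some of the 21, such as HIST1H4E and HIST1H2AI, needed high LR values to be kept, so the rule shaped these member medians. Over the 14 replication-dependent members of any cluster that did not depend on LR, the medians were 2.39 against Control and 1.43 against DTEP. Around the HIST2 genes (chr1:121007175-149987965) 38 other genes were tested. Of these, 24 (63.2%) were higher and 4 (10.5%) lower in LR against Control, with a median of 0.71. In LR against DTEP, 3 (7.89%) were higher and 2 (5.26%) lower (median 0.24). Around HIST3, 1 of 2 other genes was higher in LR against Control (median 1.21). The part of these shifts in the HIST2H2BE values was not tested. Within the clusters, 14 pairs of listed genes started head to head within 1000 bases, and 5 pairs had both genes kept. In HIST1H2BG and HIST1H2AE both genes rose from Control to LR, from 1.22 to 23.7 and from 1.22 to 10.98. In other pairs both means were higher in LR but the levels lay far apart. HIST2H2AC, which shares the start region of HIST2H2BE at a distance of 236 bases, had a mean of 0.111 in Control and 0.313 in LR, against 14.9 and 250.2 for HIST2H2BE. HIST1H2AH, the partner of HIST1H2BK, had a mean of 0.0181 in Control and 0.278 in LR, against 37.3 and 101 for HIST1H2BK. In HIST1H2BC and HIST1H2AC, the means went from 1.06 to 0.321 and from 3.00 to 8.32 between Control and DTP, so the means of the pair moved in opposite directions at day 9. HIST1H2AC passed as higher, and HIST1H2BC did not pass by limma (adjusted p = 0.104) but passed as lower in edgeR (adjusted p = 0.0269) and DESeq2 (adjusted p = 0.0131).

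Histone variants outside the rule changed too, and 3 of the 12 listed ones in the table were tested. H2AFY2 (macroH2A2) was at 98.9, 101 and 98.2 in Control and 106, 107 and 90.98 in DTP, and dropped to 6.46, 2.06 and 0.168 in DTEP and 0.0422, 0.941 and 0.484 in LR (DTEP against DTP -5.10 ± 0.49 (SE), adjusted p = 2.38e-06). Its relative H2AFY kept a level of 316 to 534 in all 12 libraries. CENPA, the H3 variant of centromeres, went from 17.02, 15.4 and 15.98 in Control to 1.57, 2.17 and 2.02 in DTP (-2.56 ± 0.21 (SE), adjusted p = 3.29e-06), then to 31.4, 29.0 and 17.5 in DTEP (3.17 ± 0.21 (SE), adjusted p = 1.43e-07) and 8.24, 9.91 and 8.43 in LR (-1.41 ± 0.21 (SE), adjusted p = 0.00624). H2AFJ, an H2A variant, was at 51.01, 51.9 and 51.7, 85.4, 72.5 and 60.1, 161, 135 and 88.1 and 75.8, 81.6 and 62.9 in the 4 groups in that order, and passed as higher in DTEP against DTP (0.78 ± 0.21 (SE), adjusted p = 0.00493). Of the other 9, 7 were listed at 0 in all libraries, and H3F3C and HILS1 stayed below 0.5.

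Genes that make, process and carry histone RNA and protein were followed as 65 supply genes from 3 lists, and most of those that passed fell in DTP. By adjusted p, 31 of 65 (47.7%, against 28.8% of all genes) were lower and 7 (10.8%, against 25.2%) higher in DTP (median log2 change -0.46). In DTEP against DTP, 36 (55.4%, against 35.7%) were higher and 8 (12.3%, against 32.6%) lower (0.59). In LR against DTEP, 1 (1.54%, against 3.04%) was higher and 7 (10.8%, against 4.31%) lower (-0.40). The medians of all genes in these comparisons were -0.01, 0.08 and -0.07. The LR against DTEP counts were 11 higher and 38 lower without DTEP replicate 3, and 0 to 1 higher and 1 to 14 lower when any other library was left out.

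Of 13 transcription genes, 9 (69.2%) were lower and 3 (23.1%) higher in DTP, against 28.8% and 25.2% of all genes. NPAT, the activator of histone genes in S phase, went from 36.1, 35.1 and 33.2 to 11.2, 12.2 and 20.3 in DTP (-1.25 ± 0.25 (SE), adjusted p = 0.00123), and was at 20.05, 32.3 and 36.3 in DTEP and 44.7, 37.4 and 48.98 in LR. CASP8AP2 (FLASH), which works with NPAT and in the cutting of the mRNA, went from 105, 109 and 99.9 to 16.9, 19.6 and 27.5 (-2.27 ± 0.26 (SE), adjusted p = 3.55e-05). CCNE2 and E2F1, which act at the entry to S phase, had the largest falls beside the chaperone ASF1B. CCNE2 fell from 164, 163 and 133 to 5.22, 6.32 and 8.81 (-4.33 ± 0.25 (SE), adjusted p = 2.3e-07) and E2F1 from 40.7, 44.1 and 44.7 to 4.12, 3.06 and 2.59 (-3.39 ± 0.52 (SE), adjusted p = 0.000223). Both were called higher in DTEP against DTP (5.12 ± 0.52 (SE), adjusted p = 3.45e-06 for E2F1 and 3.23 ± 0.25 (SE), adjusted p = 4.39e-07 for CCNE2).

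Of 21 genes of 3′ end processing and decay, 6 (28.6%) were lower and 2 (9.52%) higher in DTP, against 28.8% and 25.2% of all genes. In LR against Control 6 were again lower and 2 higher, against 32.6% and 30.2%, so the lower counts lay near the background. SLBP went from 95.7, 98.2 and 93.96 in Control to 38.9, 42.2 and 47.4 in DTP (-1.15 ± 0.19 (SE), adjusted p = 0.000448), to 118, 141 and 76.96 in DTEP (1.33 ± 0.19 (SE), adjusted p = 7.17e-05) and 69.4, 84.1 and 64.4 in LR (LR against Control -0.41 ± 0.19 (SE), adjusted p = 0.0874). MIF4GD (SLIP1), which joins SLBP to translation, rose in DTP and DTEP, from 20.97, 18.1 and 21.1 in Control to 39.8, 36.8 and 31.8 in DTP (0.82 ± 0.16 (SE), adjusted p = 0.0012), 116, 111 and 99.1 in DTEP (1.57 ± 0.16 (SE), adjusted p = 3.78e-06) and 89.5, 133 and 99.9 in LR.

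Of 31 chaperone and deposition genes, 16 (51.6%) were lower and 2 (6.45%) higher in DTP, against 28.8% and 25.2% of all genes. In DTEP against DTP, 20 (64.5%) were higher and 5 (16.1%) lower, against 35.7% and 32.6% of all genes. MCM2 stands both here and among the S phase genes. ASF1B, an H3 and H4 chaperone of replicating cells, fell from 105, 108 and 108 to 6.73, 7.31 and 5.36 in DTP (-3.87 ± 0.54 (SE), adjusted p = 0.000115) and was at 93.6, 80.9 and 39.2 in DTEP and 30.7, 6.696 and 49.4 in LR. In LR, replicate 2 was the lowest library for ASF1B and the highest for HIST2H2BE. ANP32E, which removes H2A.Z from chromatin, went from 2.71, 3.31 and 4.66 in DTP to 143, 217 and 117 in DTEP (5.11 ± 0.36 (SE), adjusted p = 2.14e-07).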

How the data were processed

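RNA of 12 BT474 libraries was sequenced after stranded library preparation (kit named as TruSeq Stranded Total mRNA, 300 ng of RNA, NovaSeq). The authors aligned and counted reads with Rsubread on RefSeq genes, and the submitters' processing notes name bcl2fastq, edgeR and hg38, with versions not given in the sources used here. The deposited values are a normalised signal, the normalised read counts, which were reads divided by library sizes scaled by trimmed means. Each of the 199680 values above 0 came to a whole number of reads (100.0% within a tolerance of 1e-06 reads), so reads were recovered from them. Every column was mapped to a sample.

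Values were transformed to log2(value + 1), on which fold changes of low genes are understated, and 13794 genes at 1 or more in at least 3 libraries were fitted with limma 3.58.1 (R 4.3.3, trended prior, all 12 libraries, no covariate). Benjamini-Hochberg adjustment covered all genes tested, and calls needed an adjusted p under 0.05 together with a log2 change beyond 2. Counts by adjusted p alone are given beside it. Python 3.11.15 and pandas 2.3.3 were used for sums, where a sum adds the values of its genes. Alternatives used edgeR 4.0.16 (quasi-likelihood) and DESeq2 1.42.0 on recovered reads. On simulated reads for DTP against Control (13435 genes tested, 200 changed by 8-fold), limma recovered 194, edgeR 200 and DESeq2 200, with 0 false calls each. The changed genes were drawn only from genes above a minimum mean level. Recovery at the low levels of many histone members was therefore not measured. Intervals on reads cover counting error only.

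Stem-loops came from GENCODE canonical transcripts on hg38 and promoters from RefSeq. The members and lists were chosen with earlier results of these data known. Genes named by rule were the replacement and linker members, the member with the highest mean in each core class, members and supply genes with the largest changes among those called, the listed variants, and SLBP, NPAT and CASP8AP2. HIST1H2AG, HIST1H2AI, HIST1H2BC, HIST1H2BD, HIST1H2BG, HIST1H2BH, HIST1H2BJ, HIST1H2BK, HIST1H3E, HIST1H3G, HIST1H4E, HIST3H2A, MIF4GD and the head-to-head pairs were chosen after their values were seen. Antisense and overlapping transcripts were not treated apart.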

Additional observations from a re-analysis of the deposited data

How the results depend on the processing

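Counts of called members depended mainly on the log2 threshold, the pseudocount and the tool, and the cause was not tested. With the log2 limit at 1, the counts were 4 higher and 2 lower in DTP against Control, 11 higher in DTEP against DTP, 11 in LR against DTEP, 11 in DTEP against Control and 23 in LR against Control. By adjusted p alone they were 5 higher and 4 lower, 19 higher, 18 higher and 1 lower, 21 higher and 1 lower, and 25 higher and 2 lower, in that order. A pseudocount of 0.1 gave 13 higher in DTEP against DTP, 9 in LR against DTEP and 7 in DTEP against Control, and one of 0.5 gave 5 in LR against DTEP. The shares of all genes at a log2 limit of 1 and at these pseudocounts are not given. Counts under these settings therefore show only how the calls depend on the setting. On recovered reads, edgeR called 1 higher and 3 lower in DTP, 14 higher in DTEP against DTP, 9 in LR against DTEP and 11 in DTEP against Control, where DESeq2 called 9, with the same numbers as edgeR in the other 3 comparisons named. In LR against DTEP, a fit of the 6 libraries alone called 0 and median-of-ratios rescaling 2. A mean of at least 5 left 14 members, 7 of them called in LR against Control. Leaving out 1 library gave 0 to 7 called in LR against DTEP, with 0 without LR replicate 2, 2 without DTEP replicate 1 or 2, 3 without DTEP replicate 3 and 7 without LR replicate 3. HIST2H2BE in DTEP against DTP ranged from -0.32 to 0.11 on the log2 scale when 1 library was left out, was above 0 only without DTEP replicate 3, and was called in none of these fits. HIST1H2BJ in LR against DTEP, also not called, ranged from -0.0146 to 0.44 and was below 0 only without DTEP replicate 3.

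The samples were treated as unpaired, and 2 of 18 correlations of same-numbered deviations were above 0.1 (lowest -0.44, highest 0.36). Both were between DTP and DTEP, at 0.36 for replicate 1 and 0.34 for replicate 3. Low correlations cannot show that same-numbered plates were unrelated. A fit with the replicate block called 0, 3, 1, 2 and 15 members higher in the 5 comparisons, the same numbers as without it, while by adjusted p alone LR against DTEP had 16 higher and 0 lower. Trimmed-mean rescaling returned the deposited values. The low levels limit precision, as 1 read was worth up to 0.0576, and the 3 libraries of a group give no measure of variation between independently derived cells.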
